A study of Mus musculus with 6 samples.

Results

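The Ifit genes encode interferon-induced proteins with tetratricopeptide repeats, and 4 of them, Ifit1, Ifit2, Ifit3 and Ifit1bl1 (formerly Gm14446), were followed in mouse bone marrow cells with and without extra miR-142-3p. They were found by the gene symbol that the platform annotation gives to each probe set. Each gene had 1 probe set, so the family comprised 4 of the 45101 probe sets, and 0 probe sets were annotated to several Ifit genes together. The cells came from healthy C57BL/6 mice and were transfected with the reagent GeneSilencer, either with a mimic of miR-142-3p (100 nM) or with a control oligonucleotide labelled CTRL. GM-CSF and IL-6 followed after 5 h in both groups and stayed for 4 days, a culture that gives myeloid-derived suppressor cells. Each group is represented by 3 samples, read on 6 arrays in all (Affymetrix MOE430 2.0). Both groups were transfected and both received the cytokines, so no untransfected or cytokine-free level was measured. The labels do not tell whether arrays of a group stem from separate mice or cultures, so p-values cover only the spread between these arrays, which may be technical.

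Ifit genes are silent or low in most resting cells and are among the first genes switched on when type I interferon binds its receptor. The signal runs through Jak1 and Tyk2 to a STAT and Irf9 complex, which binds the interferon-stimulated response element (ISRE) in promoters, and interferon regulatory factors can act on the same element directly. Ifit1 binds RNA whose cap lacks the methylation of host mRNA and blocks its translation. Ifit2 and Ifit3 act with it and on other steps of translation and cell death, and Ifit1bl1 is an Ifit1-related gene of the same mouse cluster.

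The oligonucleotide that separates the groups copies the mature microRNA below, shown as RefSeq gives it (GRCm38.p6, chr11:87756903-87756925, plus strand) with its seed, bases 2 to 8, in capitals. The labels name the mimic but give no letters for it or for the control.
mmu-miR-142a-3p: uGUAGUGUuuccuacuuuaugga

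The listed promoters of 3 of the 4 genes held the ISRE core GAAANNGAAA on 1 or other strand, in windows from 250 bases before to 50 after the transcript starts of a RefSeq promoter table (GRCm38.p6). This table does not hold every start, since the outer ends of Ifit2, Ifit3 and Ifit1bl1 in RefSeq lie elsewhere, and those were not searched. The stretches around these cores are printed with 15 bases on each side because they show what 3 of the 4 members share that the choice by symbol did not use. All lie on chromosome 19, and capitals mark the cores, read here as the reverse complement of the motif. Ifit1 is at chr19:34640770-34640828 on the plus strand, Ifit3 at chr19:34583358-34583431 on the plus strand, and the pair of listed Ifit1bl1 starts at chr19:34599426-34599465 and chr19:34602048-34602087 on the minus strand.
Ifit1: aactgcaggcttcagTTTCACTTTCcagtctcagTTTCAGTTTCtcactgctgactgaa
Ifit3: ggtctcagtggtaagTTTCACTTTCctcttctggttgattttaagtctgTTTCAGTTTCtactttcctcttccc
Ifit1bl1 start 1: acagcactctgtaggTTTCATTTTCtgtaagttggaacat
Ifit1bl1 start 2: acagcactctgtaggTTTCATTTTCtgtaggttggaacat

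In Ifit1 the cores began 104 and 85 bases before the start, and in Ifit3 156 and 122 bases before it. Ifit1bl1 had 1 core in each window, 23 bases before its first listed start and 104 before its second, and these stretches matched in 39 of 40 bases. The longer form GAAANNGAAACT, which contains the core, occurred 2 times in Ifit1, 1 time in Ifit3 and 0 times in Ifit1bl1. Both windows of Ifit2 lacked the core, which says only that these letters are not in those windows. The core was found on either strand in 3.44% of all 32851 promoter windows and in 12 of 29 windows (41.4%) of the other interferon-stimulated genes described below, and the longer form in 0.271% and 27.6%. Those 29 windows belong to 23 of the 31 measured genes of that list, and 11 of the 23 (47.8%) had a core. The other interferon motif, the palindromic GAS element TTCNNNGAA, was in 1 of the 6 windows of the 4 genes, in Ifit2, 241 bases before the first listed start, in 8.3% of all windows and in 24.1% of the 29. A match is a string of letters and does not show that a factor bound there.

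The Ifit1 promoter overlaps a listed promoter of a relative. Ifit1bl2, which lies next to Ifit1 on the opposite strand, has 2 listed starts, one 146 bases from that of Ifit1 and the other 11078 bases away. The window of the nearer start overlaps that of Ifit1 by 245 bases, and the other shares 0 bases with it and holds no core. The same 59 bases stand upstream of Ifit1 and of that nearer start, and on the strand of Ifit1bl2 they read as follows, with the cores 70 and 51 bases before the start (chr19:34640770-34640828, minus strand).
Ifit1bl2: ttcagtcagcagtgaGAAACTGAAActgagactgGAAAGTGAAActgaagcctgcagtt
In Ifit3b, a near copy of Ifit3 whose transcript was not analysed here, the 74-base stretch was identical to that of Ifit3 in 74 of 74 bases.

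**Figure D1:**
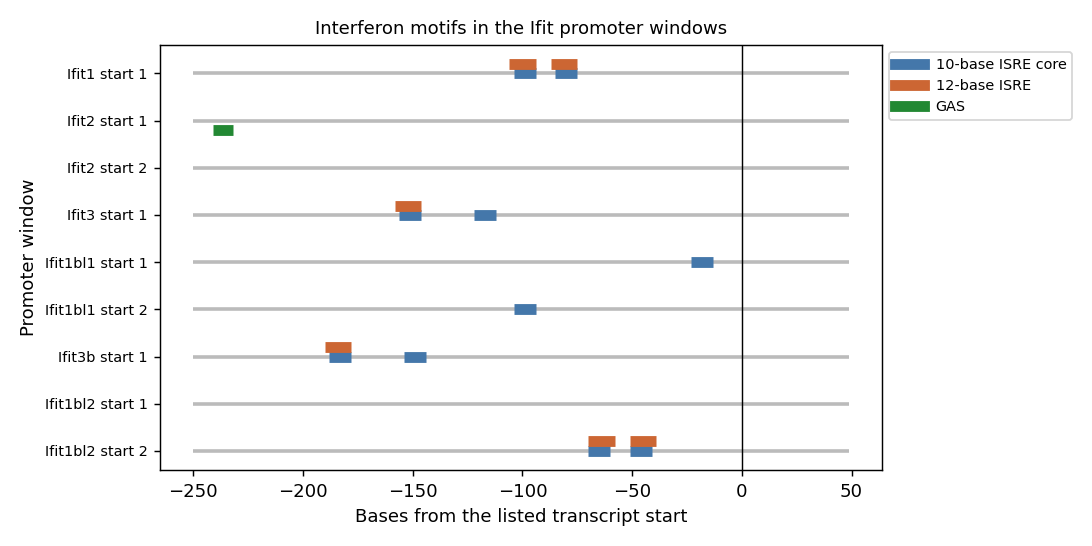
Motif matches in each promoter window of the Ifit genes, by distance in bases from the listed transcript start (vertical line at 0), with the 10-base ISRE core, the 12-base form and the GAS element in separate colours. Ifit1, Ifit3 and both Ifit1bl1 windows hold at least 1 core, and the Ifit2 windows hold none.

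All 4 Ifit genes stood higher with the mimic. The mean difference was 3.68-fold for Ifit1, 5.04-fold for Ifit2, 4.4-fold for Ifit3 and 31.9-fold for Ifit1bl1. In RNA of whole cultures, more cells with Ifit transcripts and more transcripts per cell cannot be told apart. In each of them all 3 mimic arrays lay above all 3 control arrays, which was so for 11.0% of the 18193 genes with a single-symbol probe set. The smallest distance between the highest control and the lowest mimic array was 1.17 on the log2 scale, in Ifit1, and the largest was 3.44, in Ifit1bl1. Tested with limma over all 45037 probe sets that are not array controls, 2 of the 4 passed an adjusted p of 0.05, Ifit3 and Ifit1bl1, against 0.329% of all probe sets called higher. Tested over 18193 genes with 1 probe set each, 4 of 4 passed, against 1.17% of genes called higher. Ifit1 and Ifit2 were thus called in one fit and not in the other, which differ in the features adjusted for and in the variance estimate.

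Ifit1, whose product holds back translation of foreign RNA, read 5.67, 6.77 and 7.19 in control arrays 1, 2 and 3 (deposited log2 values). In mimic arrays 1, 2 and 3 it read 8.47, 8.45 and 8.35. The mimic arrays were nearly level while the controls spread over more than a log2 unit, with control array 1 lowest. The means were 6.54 ± 0.79 and 8.42 ± 0.06 (SD, n = 3), and the log2 fold change was 1.88 ± 0.34 (SE, 95% interval 1.08 to 2.68). Its adjusted p by limma was 0.0626 over probe sets and 0.0309 over genes.

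Ifit2 (Entrez gene 15958), which has been linked to restraint of virus spread and to cell death, read 4.97, 6.44 and 6.83 in the control arrays. It read 8.35, 8.41 and 8.48 in the mimic arrays. Again the mimic arrays lay close together and control array 1 lay apart, 1.11 below the control mean. The log2 fold change was 2.33 ± 0.42 (SE, 95% interval 1.34 to 3.32), from 6.08 ± 0.98 to 8.41 ± 0.07 (SD, n = 3), with an adjusted p by limma of 0.062 over probe sets and 0.0306 over genes.

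Ifit3 (Entrez gene 15959), a partner of the other Ifit proteins, had the narrowest controls of the 4. Its control arrays read 5.25, 6.14 and 6.49 and its mimic arrays 7.92, 8.18 and 8.2. Here mimic array 1 was the lowest of its group, and it still lay 1.43 above the highest control. The log2 fold change was 2.14 ± 0.29 (SE, 95% interval 1.46 to 2.81), from 5.96 ± 0.64 to 8.1 ± 0.16 (SD, n = 3), and it passed over probe sets (adjusted p = 0.0309 by limma) and over genes (adjusted p = 0.0137).

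Ifit1bl1 (Entrez gene 667373) had the largest rise of all 18193 genes and of all 45037 probe sets. Its control arrays read 1.33, 3.88 and 4.7 and its mimic arrays 8.45, 8.31 and 8.14. The controls differed from each other by up to 3.37, more than the whole difference between the groups in the other 3 genes. The log2 fold change was 5.0 ± 0.75 (SE, 95% interval 3.24 to 6.75), from 3.3 ± 1.76 to 8.3 ± 0.15 (SD, n = 3), with an adjusted p by limma of 0.0389 over probe sets and 0.0181 over genes. Against single control arrays the mimic mean was 125-fold, 21.3-fold and 12.1-fold higher, so the fold rests heavily on which control is used. The value of control array 1 is near the low end of the table, where 52.6% of all values lie below 1, and folds that involve it are the least certain.

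**Figure D2:**
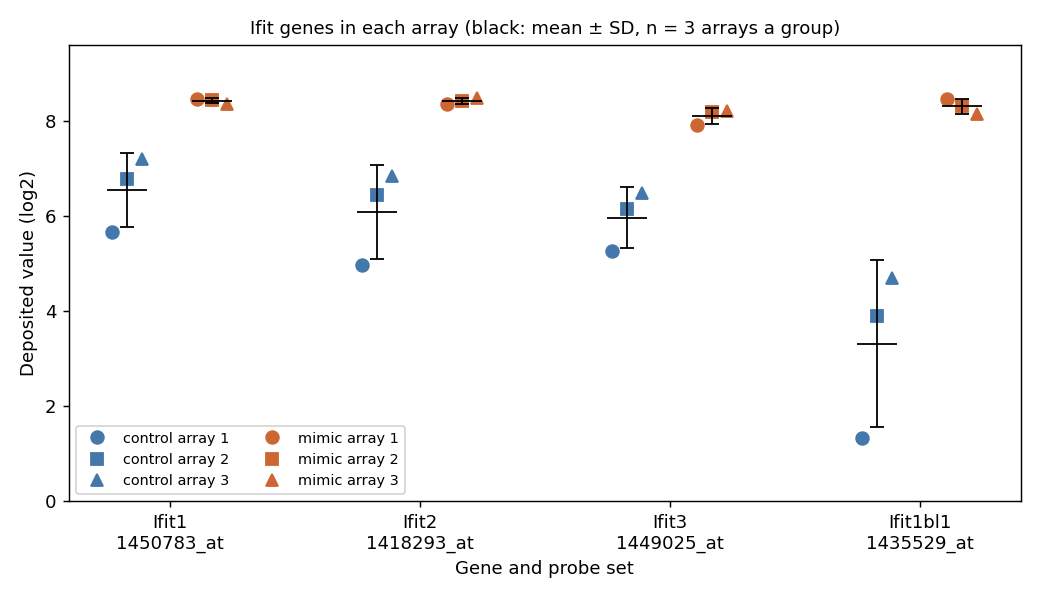
Deposited log2 value of each Ifit probe set in every array, with control arrays in blue and mimic arrays in orange, marker shapes for array numbers, and black bars for mean ± SD over 3 arrays. In every gene the mimic arrays cluster near 8 and the control arrays spread below them in the same order, array 1 lowest and array 3 highest.

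The control arrays took the same order in all 4 genes, control array 1 lowest, then 2, then 3, and so did 17.1% of all genes and 25.6% of the 4093 genes whose mean log2 reached 5. Measured from control array 1 (0%) to the mimic mean (100%) on the log2 scale, control array 2 lay at 40.1% in Ifit1, 42.5% in Ifit2, 31.2% in Ifit3 and 36.7% in Ifit1bl1. Control array 3 lay at 55.1%, 54.1%, 43.3% and 48.3% in the same genes. The 4 genes therefore shared much of their pattern among the controls as well as between the groups. Control array 1 also deviated most over all probe sets. The weight that limma gave each array from its spread was 0.38 for control array 1 and 0.72 to 1.645 for the others. How much of the low Ifit values in control array 1 goes with this was not tested. The SD of the members ran from 0.64 to 1.76 in the controls and from 0.06 to 0.16 with the mimic, while the median SD of those 4093 genes was 0.12 in the controls and 0.1 with the mimic. The limma fits take the variance of a gene as equal in both groups. The SEs, intervals and p-values of the 4 genes rest on that assumption, which these SDs do not meet.

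Without control array 1 the mean differences were smaller and their errors much smaller. Ifit1 was then at 1.44 ± 0.14, Ifit2 at 1.78 ± 0.14, Ifit3 at 1.78 ± 0.15 and Ifit1bl1 at 4.01 ± 0.25 (log2 fold change ± SE), and 4 of 4 passed over probe sets (adjusted p 0.0317 to 0.0345 by limma). In Ifit1bl1 this is a 16.1-fold difference in place of 31.9-fold, and without control array 3 it was 51.7-fold. Without control array 2, or without any 1 of the 3 mimic arrays, 0 of 4 passed over probe sets (adjusted p 0.141 to 0.273 by limma) or over genes (0.0717 to 0.163), with log2 fold changes between 1.86 and 5.29. In those fits over probe sets 0 of all 45037 passed, with 4579 to 5518 at an unadjusted p under 0.05.

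**Figure D3:**
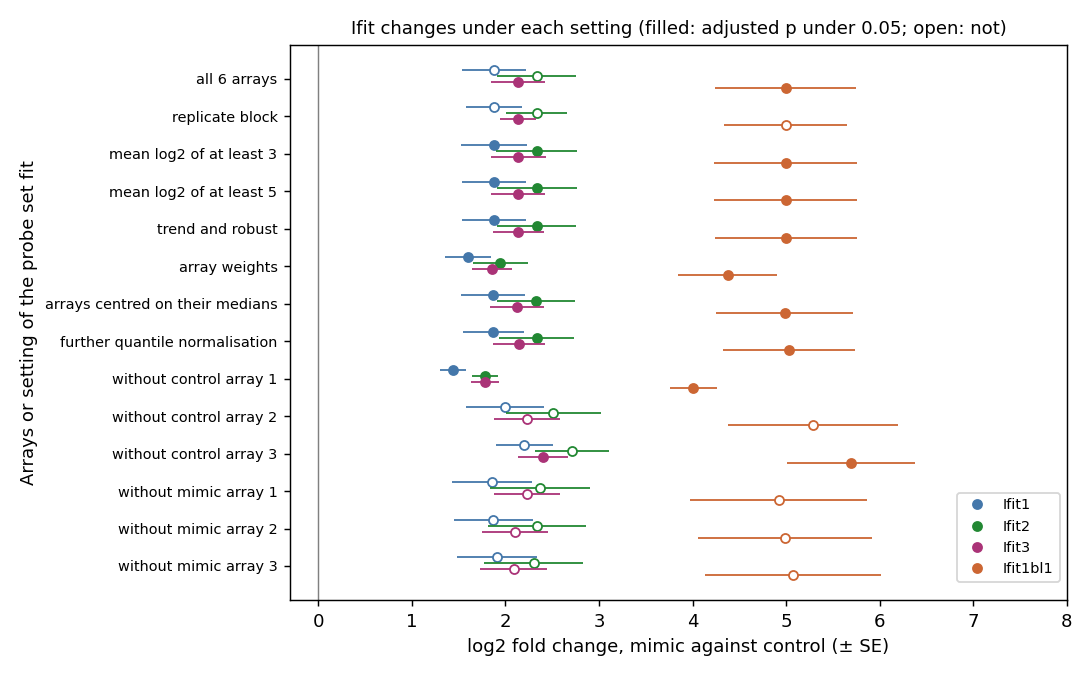
Log2 fold change, mimic against control, with its SE for each Ifit gene (colours) in the fit over all probe sets, with all 6 arrays, under other settings and with each array left out; filled points have an adjusted p under 0.05. The estimates of Ifit1, Ifit2 and Ifit3 stay between 1.44 and 2.71 and those of Ifit1bl1 between 4.01 and 5.69, while the calls are lost when control array 2 or any mimic array is left out.

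The size of the change was compared between members through their difference within each array, in 6 pairs, where an exact two-sided permutation test of 3 against 3 arrays cannot go below 0.1. The difference of log2 fold changes between Ifit1bl1 and Ifit1 was 3.12 ± 0.56 (SE), with Ifit2 it was 2.66 ± 0.47 and with Ifit3 2.86 ± 0.67. In each of these pairs the control and mimic arrays did not overlap (exact permutation p = 0.1, adjusted p = 0.15 over 6 pairs). Without control array 1 these differences were 2.57, 2.23 and 2.22. Ifit2 exceeded Ifit1 by 0.45 ± 0.14, also without overlap (exact permutation p = 0.1, adjusted p = 0.15). Ifit3 lay 0.26 ± 0.15 above Ifit1 (exact permutation p = 0.2, adjusted p = 0.24) and 0.2 ± 0.21 away from Ifit2, on the lower side (exact permutation p = 0.6), and in both of these pairs the arrays overlapped. So the differences were largest in the pairs with Ifit1bl1, at the same exact permutation p as Ifit2 against Ifit1, and the design is too small to pass a threshold. Ifit1, Ifit2 and Ifit3 lay within 0.45 of each other. Whether probe background or signal from a relative narrows or widens these differences was not tested.

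Ifit1bl2, the other Ifit gene with a value, gave weak signals. The pair of Ifit1bl2 probe sets read 0.57, 1.06 and 0.99 and 1.99, 2.33 and 2.12 in the control arrays, against 2.26, 1.5 and 1.8 and 2.52, 2.69 and 2.23 with the mimic. Neither log2 fold change, 0.98 ± 0.21 and 0.33 ± 0.15, was called (limma over probe sets, adjusted p = 0.1 and 0.389). One listed start of Ifit1bl2 shares the promoter stretch of Ifit1 printed above. Probe sets of different genes cannot be compared in level, and Ifit genes are similar in sequence, so part of a signal may come from a relative; this was not tested.

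The genes next to the cluster on either side stayed near 0. By lower RefSeq coordinate the cluster runs Ifit2, Ifit3, Ifit1bl1, Ifit3b, Ifit1bl2, Ifit1. The listed span of Ifit1bl1 (chr19:34592888-34662981) contains those of Ifit3b, Ifit1bl2 and Ifit1. The cluster lies between Lipa, the lysosomal acid lipase gene, and Slc16a12, a transporter gene. The log2 fold change of Lipa was 0.06 ± 0.12 (limma over genes, adjusted p = 0.861), and its other 2 probe sets were at -0.3 and -0.003. Slc16a12 was at the floor of the table and at -0.04 ± 0.12. Beyond Lipa, Ch25h, which makes the antiviral sterol 25-hydroxycholesterol, and Fas, the death receptor gene, fell. Ch25h read 4.82, 4.69 and 4.47 in the control and 3.11, 2.99 and 3.44 in the mimic arrays, which is -1.49 ± 0.15 as a log2 fold change (limma over genes, adjusted p = 0.00673), and Fas changed by -0.81 ± 0.13 (adjusted p = 0.0246), where 1.59% of genes were called lower. These were chosen after their values were seen.

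**Figure D4:**
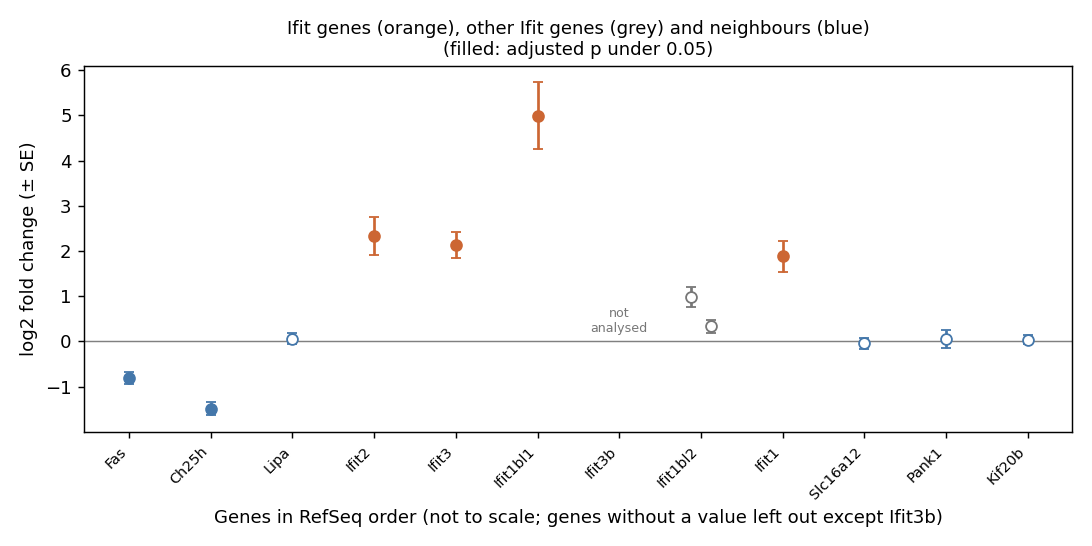
Log2 fold change, mimic against control, with its SE for the Ifit genes (orange), Ifit1bl2 through 2 probe sets (grey, from the fit over probe sets) and the 3 nearest genes with a value on each side (blue), in RefSeq order and not to scale; filled points have an adjusted p under 0.05. The 4 Ifit genes lie at 1.88 and above, Ch25h and Fas lie below 0, and the genes next to the cluster lie near 0.

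The pathway that drives Ifit genes was described through 8 lists with 91 entries, of which 79 were measured by the fit over genes. In all 27 rose, 2 fell and 50 did not pass (34.2% rose, against 1.17% of all genes), with a median log2 fold change of 0.29 against 0.01 over all genes. The 2 falls among the 79 stand beside 1.59% of all genes called lower. The lists were chosen with earlier results of these data known, which may have raised these shares and the list medians, so they are a description and not a test. Without control array 1 there were 21 rises and 2 falls, without mimic array 2 there were 3 rises, and there were 0 calls when control array 2, or mimic array 1 or 3, was dropped.

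The interferon genes themselves were near the floor in both groups. Of 9 measured members 0 rose and 0 fell, their means all lay under a log2 of 3, and the median log2 fold change was 0.04. Ifnb1, which encodes interferon beta, was at 0.45 in the control and 0.34 with the mimic. The member with the largest change was Ifna9, an interferon alpha gene, at 0.56 ± 0.14 (adjusted p = 0.0925 by limma). Protein was not measured here.

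Of 6 receptor genes 0 rose and 1 fell. Ifnar1, a chain of the type I interferon receptor, read 5.26, 5.19 and 5.03 in the control and 4.49, 4.54 and 4.58 in the mimic arrays. Its log2 fold change was -0.62 ± 0.1 (limma, adjusted p = 0.0213), where 1.59% of all genes were called lower, while its second probe set changed by -0.05. Of 5 signal transducer genes 0 rose and 1 fell, Jak1, a kinase bound to that receptor, at -0.75 ± 0.14 (adjusted p = 0.0373), with its other probe sets at -0.56 and -0.04. Stat2 was at -0.01 ± 0.3 and Irf9, the DNA-binding partner of the complex, at 0.315 ± 0.09 (adjusted p = 0.125).

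Of 5 interferon regulatory factors 2 rose. Irf7, which amplifies interferon production, read 7.24, 7.78 and 7.96 in the control and 8.63, 8.68 and 8.81 in the mimic arrays (log2 fold change 1.05 ± 0.18, adjusted p = 0.0273 by limma). Irf1 changed by 0.78 ± 0.11 (adjusted p = 0.0144). The list median was -0.4 since Irf3, Irf5 and Irf8 had lower means, which did not pass. Among 6 inhibitors Usp18, which strips ISG15 from proteins and shuts off the receptor, rose by 1.11 ± 0.16 (adjusted p = 0.018), and the other 5 did not pass.

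Of 10 sensors of foreign RNA and DNA 4 rose and 0 fell, with a median log2 fold change of 0.65. Tlr3, the endosomal receptor for double-stranded RNA, rose by 1.23 ± 0.12 but was dim (2.28 in the control, 3.51 with the mimic). The cytosolic sensor genes Ifih1 (1.13 ± 0.2) and Zbp1 (0.93 ± 0.12) rose too (adjusted p = 0.0315 and 0.0124 by limma), though a second probe set of Zbp1 was at -0.2. Of 7 genes for cap methylation and the eIF3 translation factor, the step where Ifit1 acts, 0 rose and 0 fell (median -0.03). The largest change there was that of Rnmt, the cap guanine methyltransferase gene, at 0.26 ± 0.17 (adjusted p = 0.499).

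The list of 31 measured other interferon-stimulated genes had the highest median of the 8 lists. Of these 20 rose, 0 fell and 11 did not pass, with a median log2 fold change of 0.72. Iigp1, an immunity-related GTPase gene, changed by 2.96 ± 0.42, the chemokine gene Cxcl10 by 2.34 ± 0.41 and Rsad2, the gene of viperin, by 2.33 ± 0.38 (adjusted p = 0.0168, 0.0292 and 0.0229 by limma). The other 2 probe sets of Rsad2 were at 1.15 and 1.53. Control array 1 was the lowest control in 31 of these 31 genes, as it was in 4 of 4 Ifit genes in 35.5% of all genes and in 47.7% of the 4093 genes whose mean log2 reached 5. Without control array 1, 14 of the 31 rose and 1 fell, without mimic array 2 there were 2 rises, and dropping control array 2, or mimic array 1 or 3, left 0.

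**Figure D5:**
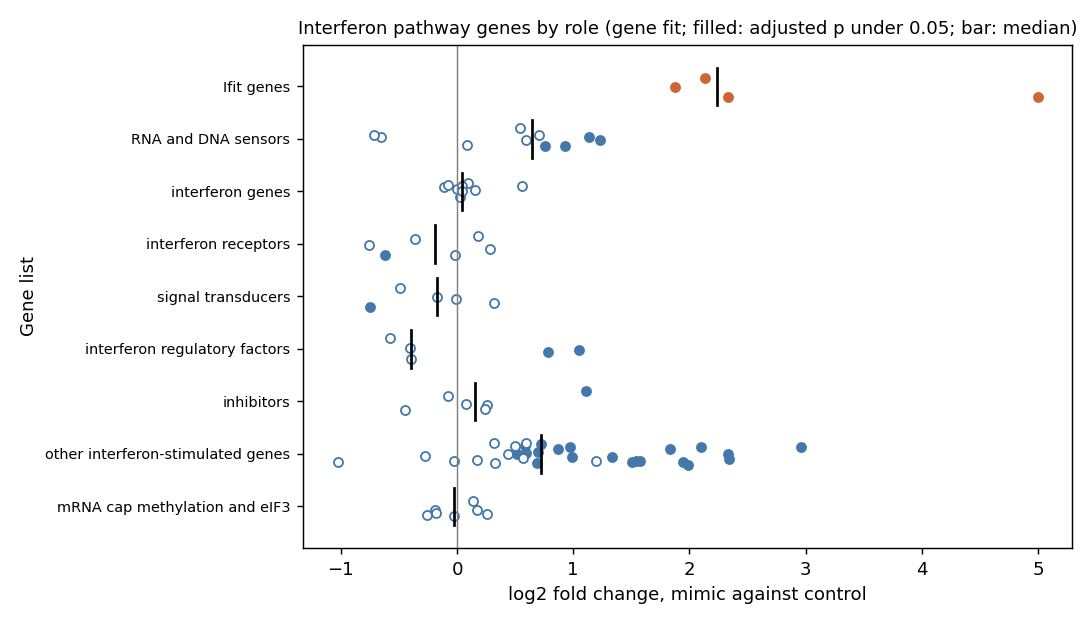
Log2 fold change, mimic against control, of each measured gene (points) in the fit over genes, by list; filled points have an adjusted p under 0.05 and black bars are list medians. The Ifit genes (orange) lie from 1.88 to 5.0, the other interferon-stimulated genes have a median of 0.72, and the interferon genes lie near 0.

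Profiles over the 6 arrays were compared after centring each gene on its own mean, by the root mean squared difference on the log2 scale, so that a small value means the same shape and size. Nearest to Ifit1 were Phf11d (0.08), Gbp6 (0.09), Ms4a6b (0.12) and Fcgr4 (0.15), all closer than Ifit3 at 0.19 and Ifit2 at 0.27. Phf11d read 4.57, 5.86 and 6.32 in the control and 7.63, 7.56 and 7.41 in the mimic arrays. Nearest to Ifit2 were Ms4a4c (0.08), Rsad2 (0.11), Cxcl10 (0.12) and Cmpk2 (0.19), and nearest to Ifit3 were Fcgr4 (0.11), Ms4a4c (0.19), Rsad2 (0.21) and Gbp6 (0.23). Fcgr4 encodes an activating Fc receptor, Gbp6 a guanylate-binding protein and Cmpk2 a nucleotide kinase of mitochondria. For Ifit1bl1, which had the largest change, all distances were larger: Iigp1 at 1.12 was the nearest and Cxcl10, Rsad2 and Ms4a4c followed at 1.41, 1.43 and 1.47. In shape alone these 4 lay close to it, with Pearson r from 0.997 to 0.999 over the 6 arrays. The search took in 2500 genes, those with a mean log2 of 6 or more in the higher group. Of the 9 different genes named here, 6 had a control mean under 6 and entered only through their mimic level, so the search favoured genes that are high with the mimic. The arrays share their 2 groups and control array 1, so such likeness is a description of 6 arrays.

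Markers were read for the cells that the culture could hold. Of 6 measured myeloid markers, including S100a8 and S100a9, 0 had a mean log2 under 3 and 1 fell, Itgam. Their summed level was 13.101 to 13.18 (log2) in the controls and 13.207 to 13.21 with the mimic, slightly higher without overlap. That sum is mostly S100a8 and S100a9, with control means of 11.846 and 12.212. Itgam changed by -1.19 ± 0.17 (log2 fold change ± SE, adjusted p = 0.017 by limma). Cd33 and Csf3r also had lower means with the mimic and Ptprc, S100a8 and S100a9 higher ones, without passing. The summed level of 7 plasmacytoid dendritic markers, of cells that make much interferon, was 7.8 to 7.93 (log2) in the controls and 8.26 to 8.52 with the mimic. That sum is mostly Bst2, itself induced by interferon and the gene of that list that passed (7.47 in the control, 8.2 with the mimic). The defining Siglech and Ccr9 were near the floor, at 1.36 and 1.3 in the control and 1.24 and 1.58 with the mimic. Ly6d and Pacsin1 had lower means with the mimic and Tcf4 and Klk1 higher ones, without passing. The summed level of 6 conventional dendritic markers was 7.16 to 8.33 in the controls and 5.41 to 5.52 with the mimic. Of these 6, 4 had a mean log2 under 3, so the sum is mostly that of Itgax and Ccr7, which both fell. The sums of macrophage markers (9.88 to 9.93 against 9.53 to 9.72; C1qb rose and Csf1r fell), B cell markers (6.21 to 6.82 against 5.85 to 6.1; Ms4a1 fell) and stromal markers (5.07 to 5.54 against 4.48 to 4.9; Col1a2 fell) were also lower with the mimic without overlap. The sums of T and NK cell markers and of erythroid markers overlapped between the groups, and all of these markers had a mean log2 under 3. How often sums of other genes separate the groups was not measured. Among the controls, control array 1, lowest in the Ifit genes, had the highest conventional dendritic, macrophage and B cell sums (8.33, 9.93 and 6.82). It had the lowest myeloid and stromal sums (13.101 and 5.07). Its plasmacytoid dendritic, T and NK cell and erythroid sums (7.82, 3.4 and 1.72) were neither highest nor lowest. The part of cell makeup in the Ifit values was not tested.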

How the data were processed

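Gene expression was measured on 6 arrays, 3 a group, with array numbers taken from the titles. The deposited table holds 1 log2 value per probe set and array. The submitters' processing notes list RMA and affy, without version or role, and how values were centred and floored is not given in those notes. That the scale is log2 was read off the values: the maximum, 12.3, is above 11.1, the natural log of full 16-bit intensity. Column medians ran from 0.84 to 0.92 and 0 pairs of arrays held identical values. Values were used as deposited.

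Probe sets were named through the platform annotation, with symbols updated by gene identifier to RefSeq (34741 of 34945 matched). The comparison used two-sided moderated tests of limma 3.58.1 (R 4.3.3) without covariates, once over 45037 probe sets without the 64 array controls, and once over 18193 genes, each through its brightest probe set with 1 symbol. P-values were adjusted by Benjamini-Hochberg across all features of a fit, threshold 0.05. The method was tested on simulated data. Those data had the same spread in both groups, unlike the Ifit genes, so unequal spread was not covered. Promoters and the microRNA came from RefSeq tables.

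The members and lists were chosen with earlier results of these data known. Named genes are the members, up to 3 passing genes with the largest change in each list (otherwise the 1 largest), 4 genes nearest in profile to each member and the nearest measured gene on each side. Ifnb1, Stat2, Irf9 and the marker genes with values were outside this rule and chosen after their values were seen. Alternatives were a replicate block, leaving out single arrays, minimum levels of log2 3 and 5, other variance models, array weights, centring, quantile normalisation and averaged probe sets. The number of arrays limits the precision.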

Additional observations from a re-analysis of the deposited data

How the results depend on the processing

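The direction of all 4 Ifit changes held under every setting tried, which their separation largely fixes in advance. The number of Ifit probe sets called, 2 with all arrays, was 4 with features under a mean log2 of 3 or of 5 left out, with a trended robust variance, with array weights, with arrays centred on their medians, with quantile normalisation and with 1 probe set a gene, 1 with the replicate block, and 0 to 4 with an array left out. Of all probe sets 404 were called, against 835 and 780 with those filters, 812 with the trended robust variance, 944 with array weights, 634 with quantile normalisation, 69 with the replicate block and 0 to 314 with an array left out. Over genes 503 were called (213 higher), against 1047 with array weights, 314 with the replicate block and 0 to 413 with an array left out. Pathway genes called were 29, against 19 with the replicate block and 0 to 25 with an array left out. Quantile normalisation moved the split over genes to 322 higher and 290 lower, and over probe sets from 148 higher and 256 lower to 315 and 319. The difference of Ifit3 minus Ifit2 turned from -0.2 to 0.0042 without control array 1 and ran from -0.31 to 0.0042 over the left-out arrays, a range added after seeing the data. The cause of these shifts was not tested. Same-numbered arrays are linked in the labels only by their number, and whether they form pairs is not known. Their deviations from the group means correlated at -0.07, 0.13 and -0.14 over probe sets. With 3 arrays a group these correlations cannot decide it.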

Other observations

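A few interferon-stimulated genes did not move with the Ifit genes. They were chosen after their values were seen. Eif2ak2, the gene of the double-stranded RNA kinase PKR, stood at 3.04 in the control and 2.01 with the mimic (log2 fold change -1.02 ± 0.59, adjusted p = 0.443 by limma over genes), and its other 2 probe sets were at -0.26 and -0.19. Without control array 1 it was lower by limma, at -1.8 (adjusted p = 0.0262). Ifi27l2a, among the brighter interferon-stimulated genes, was at 9.77 and 9.74 (-0.02 ± 0.09, adjusted p = 0.922). Slfn5, a schlafen gene, was dim at 2.8 and 2.53, and its other 2 probe sets went the opposite way. The adaptor genes of the RNA and DNA sensing pathways, Mavs and Sting1, had lower means with the mimic, by -0.65 ± 0.15 and -0.72 ± 0.2, which did not pass (adjusted p = 0.0658 and 0.116).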
